A study of Mus musculus with 32 samples.

Results

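The comparison is the genotype by fasting interaction on the control diet, that is, whether the change in liver transcripts between 24 h and 4 h of fasting differed between mice lacking Fatp2 and wild-type mice. It was computed as (KO 24 h minus KO 4 h) minus (WT 24 h minus WT 4 h) on a log2 scale, so a negative value means that a transcript rose less, or fell more, with fasting in KO than in WT. The libraries are the 16 of 32 that came from animals on the control diet, with 4 libraries in each of 4 groups: Fatp2-/- (KO) fasted for 24 h, KO fasted for 4 h, wild type (WT) fasted for 24 h and WT fasted for 4 h. All animals were male C57BL/6 mice aged 16 weeks that had eaten the control-ketogenic diet (CD), the control for a ketogenic diet (KD), since 12 weeks of age. The labels do not say how the Fatp2 gene was disrupted or which cells lost it. RNA was polyA RNA from whole liver, and each library is taken as 1 animal, which the labels do not state outright, so p-values measure the spread between these libraries. The other 16 libraries come from the same 4 groups on KD, and they share the estimate of spread and provide the interaction on the other diet.

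Fatp2, encoded by Slc27a2, is an abundant hepatic protein that takes up long-chain fatty acids and joins very-long-chain fatty acids to coenzyme A. During fasting, fatty acids released from adipose tissue reach the liver and are oxidised in mitochondria and peroxisomes, and part of the product leaves as ketone bodies. Fatty acids are ligands of the nuclear receptor PPARα, which in rodent liver turns on genes for fatty acid oxidation, omega-hydroxylation by Cyp4a enzymes, acyl-CoA hydrolysis and lipid droplet proteins.

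Total counts were 14359718 to 24700310 per control diet library. Of the 9 hepatocyte markers found, the summed level was at least 43000 CPM (reads scaled to the size of the library) in every control diet library, and the smallest Alb value was 21900 CPM. Several facts about single libraries stand beside the results. Skeletal muscle transcripts were present in KO 24 h replicates 1 and 2 and in WT 24 h replicate 1, where Acta1 stood at 78.4, 178 and 86.1 CPM, against at most 0.504 CPM in the other 13 control diet libraries. WT 24 h replicate 1 also had the lowest mean log2 CPM over male-biased genes, 5.95 against 9.23 to 9.56 in the other WT 24 h animals, and the highest summed Kupffer cell and macrophage markers, 1430 CPM against 405 to 804. On a scale set by 68 genes that differed between diets in WT mice at both times, where 0 is the WT CD mean and 1 the WT KD mean, KO 24 h replicate 4 lay at 0.81, against 0.11 to 0.40 in the other KO 24 h animals on CD. KO 24 h replicate 4 on KD lay at 0.33, against 0.76 to 0.79 in the other KO 24 h animals on KD. Both libraries are used under their labels here. The numbers in the titles do not mix between genotypes or fasting times, and a batch that followed those numbers cannot be told apart from the comparison.

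The count of Slc27a2 was lower in KO than in WT at both times. It was 278, 286, 309 and 308 CPM in KO 24 h, 207, 198, 204 and 121 CPM in KO 4 h, 1060, 1970, 2230 and 2220 CPM in WT 24 h, and 942, 1000, 905 and 974 CPM in WT 4 h. KO and WT libraries did not overlap. A count per gene does not show which exons the remaining KO reads cover. The fasting change did not pass as different between genotypes, with an interaction of -0.28 ± 0.26 (SE; edgeR quasi-likelihood test, Benjamini-Hochberg adjusted p = 0.76).

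Most genes whose fasting change differed had a negative interaction, and genes of fatty acid oxidation were among them. Of the negative genes, 24 were on the 7 lipid lists described below and 44 on no list. After 24 h nearly all negative genes were higher than after 4 h in WT, while in KO they already stood above WT at 4 h. Over the 14438 genes tested, 88 passed an adjusted p of 0.05 for the interaction (0.61%), 71 negative (0.492%) and 17 positive (0.118%), and 1634 had an unadjusted p under 0.05 (11.3%), 6.49% negative and 4.83% positive. The median interaction over all genes was -0.01. Among the 71 negative genes the fitted change with fasting had a median of -0.02 in KO and 1.53 in WT. The fitted change was positive in WT for 70 of the 71 and in KO for 34, and in KO it was smaller than 0.5 on the log2 scale for 39, against 9745 of all 14438 genes. A small change in KO was no more frequent among the 71 than overall. All 71 had a higher mean in KO 4 h than in WT 4 h, as did 45.4% of all genes tested, and 13 had a higher mean in KO 24 h than in WT 24 h, as did 47.9% of all genes. The median log2 ratio of KO to WT was -0.38 at 24 h and 1.15 at 4 h. For 54 of the 71 the genotypes lay further apart after 4 h than after 24 h of fasting, against 5629 of all 14438 genes. The 71 were picked by a value built from the same group levels. These counts and medians therefore describe them and are not separate evidence.

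The 17 positive genes had the opposite form. Their median fitted change was 0.31 in KO and -1.05 in WT, and the fitted change was positive in KO for 12 and in WT for none. All 17 had a higher mean in KO 24 h than in WT 24 h, as did 47.9% of all genes tested. None had a higher mean in KO 4 h than in WT 4 h, against 45.4% of all genes. The genotypes lay further apart after 4 h for 6 of the 17, against 5629 of all 14438 genes, so this count was near the share of all genes. Over all pairs of libraries, the KO and WT fasting changes did not overlap for 35 of the 71 negative genes and 11 of the 17 positive genes, against 0.381% and 0.284% of all genes in those directions. The genes were picked for a difference in these same changes in the same libraries. All counts and medians of this paragraph therefore describe them and are not separate evidence.

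**Figure D1:**
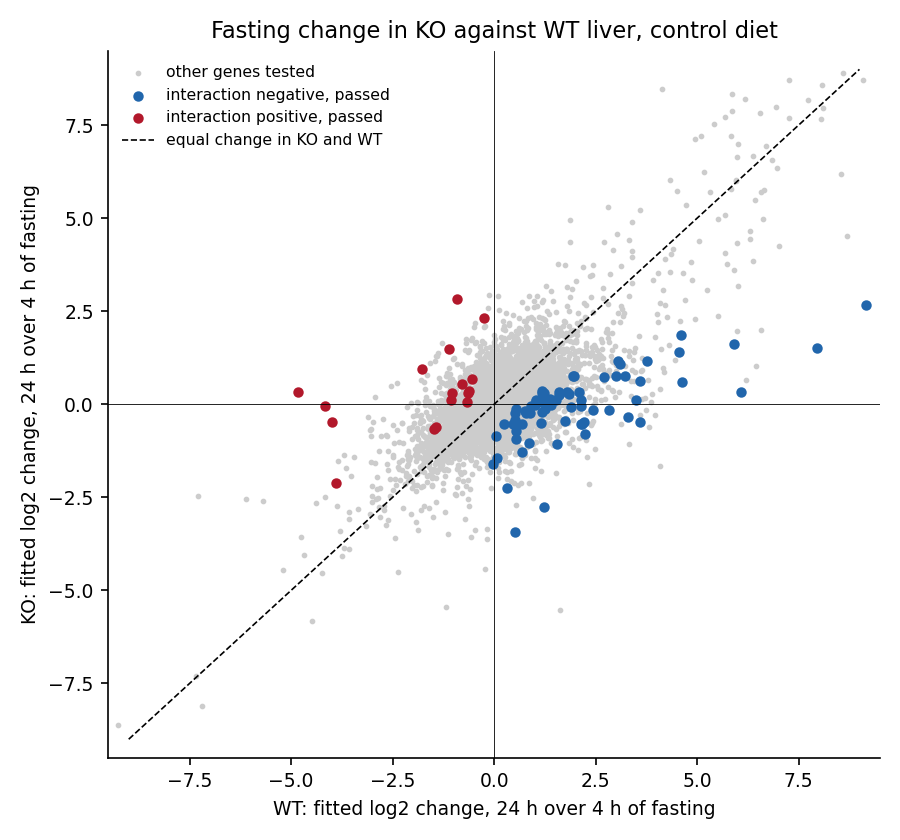
Fitted log2 change between 24 h and 4 h of fasting in KO (vertical axis) against that in WT (horizontal axis) for all 14438 genes tested on the control diet. The 71 genes with a negative interaction (blue) lie below the line of equal change, 70 of them right of 0 in WT, and the 17 with a positive interaction (red) lie above it and left of 0 in WT.

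The number of genes that passed depended on the libraries used. Leaving out the 4 libraries with muscle transcripts in the series gave 810 genes, 585 of them negative, with 85 of the 88 among them. Of the 4, 3 were from the control diet 24 h groups, and KO 24 h then rested on 2 animals, replicates 3 and 4. Those 2 lay at 0.40 and 0.81 on the diet scale, against 0.11 for replicates 1 and 2. Mitochondrially encoded transcripts made up 15.5 and 13.2% of their counts, against 6.46 and 9.36%. Single libraries whose omission moved the count over 1.5 times were KO 24 h replicate 3 (57 genes), KO 4 h replicate 1 (52) and replicate 2 (55), and WT 4 h replicate 3 (44). A fit of the 16 control diet libraries alone called 29 genes, 27 of them among the 88. Of the genes named below, Cyp4a14, Cyp4a31, Ehhadh, Acaa1b, Acot1, Acot2, Hsd17b11, Decr1, Decr2, Eci1, Eci2, Tmtc2, Nceh1, Slc35f2, Hspa1b, Enc1, Oscar, Cebpd, Fosl2, Limd2, Shroom1, Cyp2c70 and Fndc4 passed in that fit too, and every other named call was lost there. Each of the 88 genes kept its sign in every one of the 40 alternatives in which it was tested, and 36 passed in each of the 32 fits that left out 1 library.

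The products of the Cyp4a genes hydroxylate the terminal carbon of fatty acids, and 3 of these genes passed with interactions below -4 on the log2 scale. Cyp4a14 (chromosome 4, 115486200 to 115496142, minus strand, GRCm38) was at 10700, 10500, 5530 and 4810 CPM in KO 24 h, 2710, 2730, 3920 and 1630 CPM in KO 4 h, 4630, 10500, 7910 and 6450 CPM in WT 24 h, and 61.9, 19.4, 7.06 and 31.7 CPM in WT 4 h. The 24 h groups overlapped. Every KO 4 h library was above every WT 4 h library, with a ratio of means of 91.6. The mean after 24 h was 2.87 times the 4 h mean in KO and 246 times in WT, and the interaction was -6.42 ± 0.64 (SE, adjusted p = 1.06e-06).

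Cyp4a10 also had its lowest values in WT 4 h, with 2610 to 5950 CPM in KO 24 h, 845 to 1810 CPM in KO 4 h, 1660 to 6700 CPM in WT 24 h and 8.17 to 224 CPM in WT 4 h. Its interaction was -4.28 ± 0.81 (adjusted p = 0.00819). It did not pass in the fit of the 16 control diet libraries alone (adjusted p = 0.0806). Cyp4a31 was lower throughout, at 41.1 to 169 CPM in KO 24 h, 33.4 to 104 CPM in KO 4 h, 83.4 to 197 CPM in WT 24 h and 1.5 to 11.3 CPM in WT 4 h, with an interaction of -4.04 ± 0.72 (adjusted p = 0.00478). Genes of this family are close copies, so reads may have been assigned to the wrong member or dropped, and their separate values are uncertain.

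**Figure D2:**
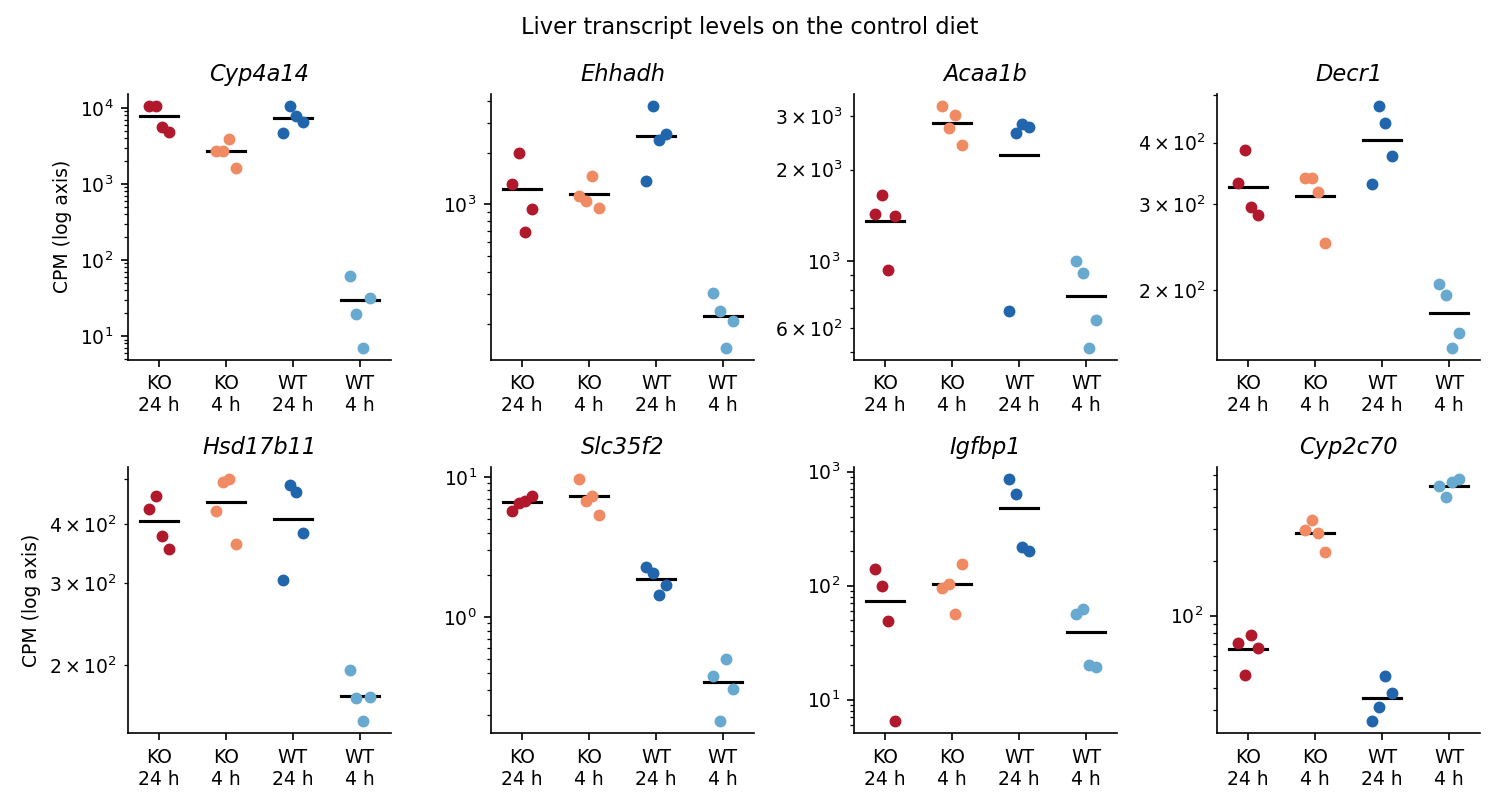
CPM on a log axis in each control diet library (points, 4 libraries per group) with the group mean (line) for 8 genes. For Cyp4a14, Ehhadh, Decr1, Hsd17b11 and Slc35f2 every WT 4 h library lies below all libraries of the other 3 groups, and Cyp2c70 is highest in WT 4 h and lowest in WT 24 h.

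The list of 30 PPARα targets had 13 members that passed, all of them negative, against 0.492% of all genes tested. The other 17 had interactions from -2.34 for Acot3 to -0.49 for Pdk4, so all 30 were below 0, and 24 had an unadjusted p under 0.05, against 6.49% of all genes for negative ones. The median interaction of the list was -1.29, against -0.01 over all genes, and its median fitted fasting change was 0.07 in KO and 1.40 in WT. The mean log2 CPM over the list was 8.18, 8.52, 7.52 and 7.72 in KO 24 h, 8.08, 7.85, 7.97 and 7.37 in KO 4 h, 7.62, 8.51, 8.59 and 8.22 in WT 24 h, and 6.51, 6.41, 5.71 and 6.24 in WT 4 h. The 4 WT 4 h libraries were the lowest 4 of the 16, and the other 3 groups overlapped. The list's direction is not independent evidence, since its level in these libraries was known when it was chosen. Its members that passed numbered 6 in the fit of the 16 control diet libraries alone and 22 without the libraries with muscle transcripts.

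**Figure D3:**
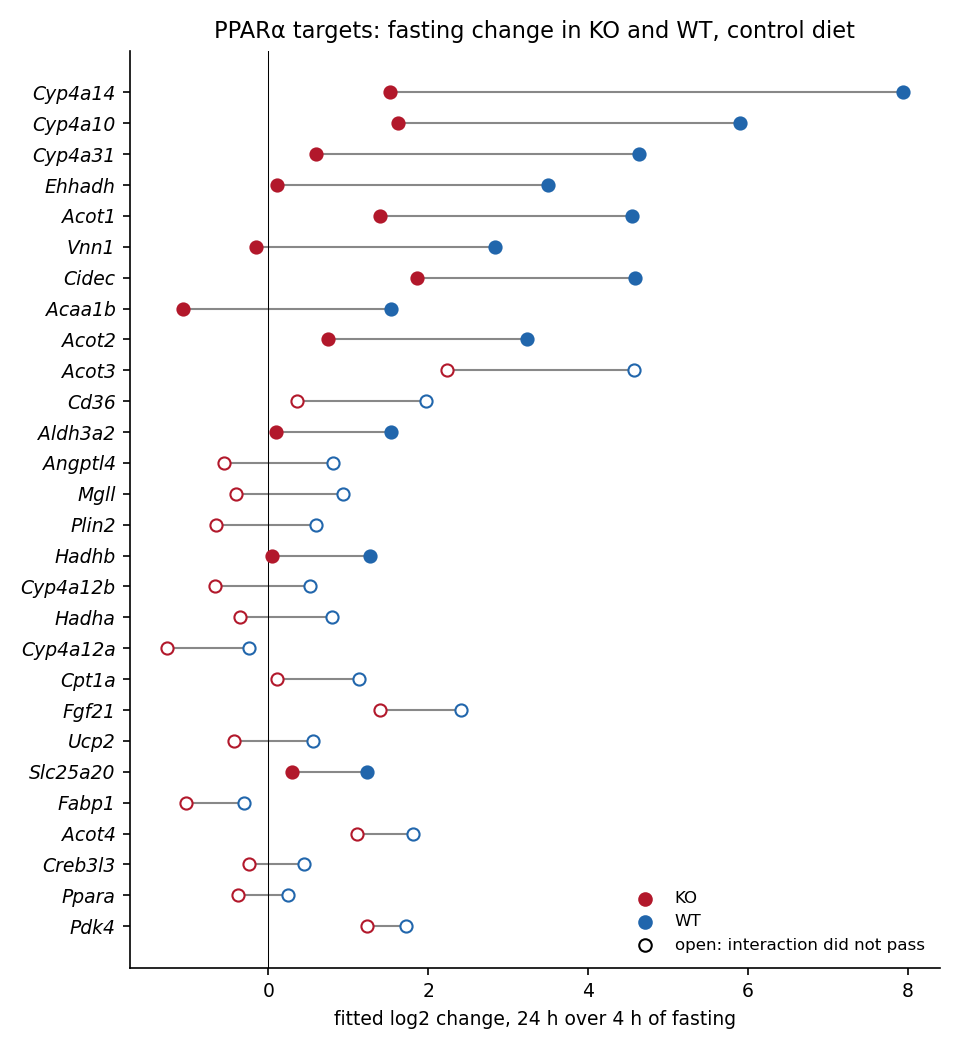
Fitted log2 change between 24 h and 4 h of fasting in KO (red) and WT (blue) on the control diet for 28 of the 30 PPARα targets, ordered by their interaction. Filled points mark the 12 of them that passed, and the KO point lies left of the WT point for all 28.

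Peroxisomal beta-oxidation, which shortens very-long-chain and dicarboxylic fatty acids, had 8 of 21 members that passed, all negative, with a median interaction of -0.94. Ehhadh, the peroxisomal bifunctional enzyme (chromosome 16, 21761287 to 21787844, minus strand), was at 1320, 1980, 683 and 940 CPM in KO 24 h, 1120, 1050, 1460 and 948 CPM in KO 4 h, 1370, 3770, 2370 and 2570 CPM in WT 24 h, and 304, 237, 145 and 206 CPM in WT 4 h. The KO groups overlapped with each other, and WT 24 h was wholly above WT 4 h. The interaction was -3.39 ± 0.50 (adjusted p = 0.00104), with ratios of 24 h to 4 h means of 1.08 in KO and 11.3 in WT.

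Acaa1b, the thiolase of the last step, was at 1430, 1650, 935 and 1410 CPM in KO 24 h, 3250, 2740, 3020 and 2410 CPM in KO 4 h, 685, 2640, 2830 and 2770 CPM in WT 24 h, and 1000, 912, 518 and 640 CPM in WT 4 h. Every KO 24 h library was below every KO 4 h library, and WT 24 h replicate 1 was the one WT 24 h library within the WT 4 h range. The fitted fasting changes had opposite signs, -1.07 in KO and 1.54 in WT, and the interaction was -2.61 ± 0.41 (adjusted p = 0.0018), or -2.93 without WT 24 h replicate 1. Acaa1b is a close copy of Acaa1a, whose interaction was -0.83 (adjusted p = 0.146), so the division of reads between them is uncertain.

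Crat, which exchanges acetyl groups between carnitine and coenzyme A, had an interaction of -1.75 ± 0.39 (adjusted p = 0.0253) and lost the call in 5 of the 32 fits that left out 1 library, up to an adjusted p of 0.0859 without KO 4 h replicate 1. Outside the rule for named genes, 4 more members were chosen after their values were seen: Pex11a (-1.27, peroxisome division), Abcd3 (-1.01, import into peroxisomes), Decr2 (-0.94) and Ech1 (-0.82), the last 2 acting on unsaturated fatty acids. Decr2 passed in each of the 32 fits, while Pex11a, Abcd3 and Ech1 lost the call in 16, 24 and 16 of them.

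Mitochondrial beta-oxidation had 5 of 19 members that passed, all negative, with a median interaction of -0.87, and 18 of 19 were below 0. The members Decr1, Eci1 and Eci2 are enzymes needed for double bonds. Decr1, the dienoyl-CoA reductase (chromosome 4, 15917240 to 15945507, minus strand), was at 331, 387, 296 and 285 CPM in KO 24 h, 339, 339, 317 and 250 CPM in KO 4 h, 330, 476, 438 and 376 CPM in WT 24 h, and 206, 196, 153 and 164 CPM in WT 4 h. WT 4 h was below all other libraries. The interaction was -1.11 ± 0.19 (adjusted p = 0.00353). The enoyl-CoA isomerases Eci1 and Eci2 had interactions of -1.07 ± 0.18 (adjusted p = 0.00353) and -0.97 ± 0.18 (adjusted p = 0.00641), with the WT 4 h libraries, at 94.8 to 125 and 107 to 118 CPM, below all others. All 3 passed in each of the 32 fits that left out 1 library.

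Hadhb, a subunit of the trifunctional protein, was at 202 to 387 CPM in KO 24 h, 243 to 306 CPM in KO 4 h, 297 to 490 CPM in WT 24 h and 150 to 191 CPM in WT 4 h, with an interaction of -1.23 ± 0.25 (adjusted p = 0.0133, and 0.0832 in the fit of the 16 control diet libraries alone). Its partner Hadha had a similar value of -1.15 that did not pass (adjusted p = 0.184). Slc25a20, the carnitine-acylcarnitine carrier, was at 206, 209, 181 and 166 CPM in KO 24 h, 170, 168, 167 and 119 CPM in KO 4 h, 187, 228, 227 and 220 CPM in WT 24 h, and 101, 101, 76.6 and 89.1 CPM in WT 4 h. Its interaction was -0.94 ± 0.17 (adjusted p = 0.00698), and it was chosen after its values were seen. Cpt1a, which makes acylcarnitines and is often taken as the rate-limiting step, did not pass (-1.03 ± 0.35, adjusted p = 0.2), and its KO 4 h and WT 4 h libraries overlapped at 408 to 592 and 368 to 451 CPM. Without the libraries with muscle transcripts Cpt1a passed with -1.68 (adjusted p = 0.00439).

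Acyl-CoA thioesterases release the fatty acid from coenzyme A, and 2 of 12 tested passed. Acot1, the cytosolic member, was at 298, 514, 215 and 245 CPM in KO 24 h, 133, 126, 164 and 58.1 CPM in KO 4 h, 243, 580, 474 and 237 CPM in WT 24 h, and 24.3, 17.7, 7.23 and 16.5 CPM in WT 4 h. The ratio of 24 h to 4 h means was 2.64 in KO and 23.4 in WT (interaction -3.15 ± 0.52, adjusted p = 0.00328). Acot2, its mitochondrial neighbour on chromosome 12, had -2.48 ± 0.51 (adjusted p = 0.0146) and lost the call without WT 4 h replicate 3 (adjusted p = 0.0502). Both belong to a cluster of close copies, so their separate counts are uncertain. Vnn1, a pantetheinase that acts in coenzyme A breakdown, was at 123 to 246 CPM in KO 24 h, 134 to 220 CPM in KO 4 h, 32.3 to 219 CPM in WT 24 h and 11.9 to 26.7 CPM in WT 4 h, with an interaction of -2.98 ± 0.49 (adjusted p = 0.00328, and 0.058 in the fit of the 16 control diet libraries alone).

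Lipid droplet and triglyceride genes had 4 of 26 tested members that passed, all negative, and a median interaction of -0.57. Fitm2, an endoplasmic reticulum protein needed for droplet formation, was at 71.1, 96.5, 60.1 and 53.3 CPM in KO 24 h, 85.8, 97.2, 85.7 and 53.5 CPM in KO 4 h, 93, 116, 94.8 and 88.4 CPM in WT 24 h, and 35.2, 51.6, 43.4 and 43.7 CPM in WT 4 h (interaction -1.37 ± 0.27, adjusted p = 0.00891). Lpin2, a phosphatidate phosphatase, had -1.65 ± 0.35 (adjusted p = 0.0188) and lost the call without KO 4 h replicate 1 (0.0656), WT 4 h replicate 3 (0.0535) or WT 24 h replicate 2 (0.0504). Cidec, which enlarges droplets, was at 15.6 to 68 CPM in KO 24 h, 5.1 to 16 CPM in KO 4 h, 32.2 to 195 CPM in WT 24 h and 3.36 to 4.36 CPM in WT 4 h. It stood just under the threshold (-2.74 ± 0.66, adjusted p = 0.0496) and lost the call in 26 of the 32 fits that left out 1 library. Cidec is also on the adipocyte marker list, whose other 6 tested members did not pass.

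Mogat1, a monoacylglycerol acyltransferase, was at 3.91, 5.85, 5.48 and 4.42 CPM in KO 24 h, 9.87, 6.57, 6.8 and 4.25 CPM in KO 4 h, 0.674, 1.03, 1.22 and 0.592 CPM in WT 24 h, and 0.507, 0.0604, 0.167 and 0 CPM in WT 4 h. Here every KO library was above every WT library at both times. The WT 4 h libraries held 8, 1, 3 and 0 reads, so the fitted interaction of -2.70 ± 0.66 (adjusted p = 0.0496) depends on the prior count, and the call was lost in 23 of the 32 fits. The 3 lipid genes that follow are outside the lists and were chosen after their values were seen. Agpat9, a glycerol-phosphate acyltransferase, had -2.59 ± 0.49 (adjusted p = 0.00797), and Abhd6, a monoacylglycerol lipase, had -1.12 ± 0.22 (adjusted p = 0.0104). Mfsd2a, a transporter of lysophosphatidylcholine, had -3.05 ± 0.71 (adjusted p = 0.039), a call lost in 8 of the 32 fits.

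With its partner RXR, PPARα binds a pair of repeated core sites spaced by 1 base, the DR1 element, here AGGTCA, any base and AGGTCA. RefSeq promoters (GRCm38.p6, 250 bases before to 50 after the gene start) matched 47 of the 71 negative genes, 11 of the 17 positive genes and 10352 of all genes tested. The exact element, searched on both strands, was in none of the 47 or the 11 and in 0.029% of all promoters, and the looser form AGGNCA, any base and AGGNCA in none of them and in 0.338% of all. A search that allowed 2 mismatches in the 12 fixed bases, added after the exact search had been seen, found 3 of the 47 (6.38%), none of the 11 and 3.89% of all promoters. A CACGTG E-box was in 14.9% of the 47, 9.09% of the 11 and 11.3% of all, TGATGNAAN in 4.26%, 9.09% and 2.88%, TCACNCCAC in 2.13%, 9.09% and 1.48%, and the heat shock element (GAA, TTC and GAA with 2 free bases between each) in none, none and 0.599%. A match is a run of letters only, and enhancers further away were not searched.
The windows of the 2 named genes with such a match are shown, from 250 bases before to 20 bases after the start, both on the plus strand. They are chr1:78510810-78511079 for Mogat1, where the match begins 51 bases before the start, and chr9:108661886-108662155 for Slc25a20, where it begins 6 bases after it. Capitals mark the match, which shares 10 of the 12 fixed bases with the element.
Mogat1: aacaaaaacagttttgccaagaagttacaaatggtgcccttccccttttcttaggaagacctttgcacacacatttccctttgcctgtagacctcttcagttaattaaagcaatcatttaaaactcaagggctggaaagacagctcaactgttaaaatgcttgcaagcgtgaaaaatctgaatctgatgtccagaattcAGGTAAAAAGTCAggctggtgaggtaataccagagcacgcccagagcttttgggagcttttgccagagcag
Slc25a20: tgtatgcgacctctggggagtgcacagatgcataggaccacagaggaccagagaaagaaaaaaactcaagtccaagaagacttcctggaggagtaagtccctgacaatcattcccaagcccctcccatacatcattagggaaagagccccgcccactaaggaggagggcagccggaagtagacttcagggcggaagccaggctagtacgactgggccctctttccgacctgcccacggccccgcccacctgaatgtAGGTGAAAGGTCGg
No member passed among 19 genes of fatty acid uptake and activation or 8 of ketone body synthesis and export, although without the libraries with muscle transcripts 5 and 6 of them passed as negative. The uptake list had a median interaction of -0.43, with 18 of 19 below 0 and 5 at an unadjusted p under 0.05. Cd36, a scavenger receptor that takes up fatty acids, was at 151, 279, 196 and 187 CPM in KO 24 h, 203, 118, 196 and 118 CPM in KO 4 h, 189, 50, 99.2 and 44.2 CPM in WT 24 h, and 24.2, 24.7, 24.8 and 24.4 CPM in WT 4 h. WT 4 h lay below the rest, and the interaction was -1.61 ± 0.42 (adjusted p = 0.0761), or -1.05 without WT 24 h replicate 1. Slc27a1, another fatty acid transport protein of the Fatp family, was at 45.1 to 88.2 CPM in KO 24 h, 19.5 to 39.8 CPM in KO 4 h, 26.4 to 49.2 CPM in WT 24 h and 3.68 to 6.07 CPM in WT 4 h. Its interaction was -1.58 ± 0.40 (adjusted p = 0.0701), and it passed without WT 24 h replicate 1 (-1.73, adjusted p = 0.0366).

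Ketone body genes had a median interaction of -0.69. The ketone exporter Slc16a1 had -1.15 ± 0.37 (adjusted p = 0.172), and without the libraries with muscle transcripts it passed with -1.78 (adjusted p = 0.00724). Fgf21, a hormone induced by fasting through PPARα, had -1.01 ± 0.60 (adjusted p = 0.56), and Ppara itself had -0.63 ± 0.32 (adjusted p = 0.475).

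Genes of glucose supply and fat synthesis did not pass. All 17 gluconeogenesis and glycerol genes tested were below 0 with a median of -0.83, and 5 had an unadjusted p under 0.05. Pck1, phosphoenolpyruvate carboxykinase, was at 4730, 2130, 1850 and 614 CPM in KO 24 h, 3840, 5280, 2260 and 2500 CPM in KO 4 h, 2430, 3940, 5080 and 4300 CPM in WT 24 h, and 1880, 2380, 1600 and 2340 CPM in WT 4 h (interaction -1.51 ± 0.56, adjusted p = 0.254). The KO 24 h values spread over most of the range of the other groups, and without the libraries with muscle transcripts the interaction was -2.61 (adjusted p = 0.00412). The de novo lipogenesis list had a median fitted fasting change of -1.92 in KO and -2.14 in WT, with a median interaction of 0.07 and 0 of 19 passing. Cholesterol synthesis and uptake had 0 of 25 passing and a median of -0.20, and no member had an unadjusted p under 0.05.

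**Figure D4:**
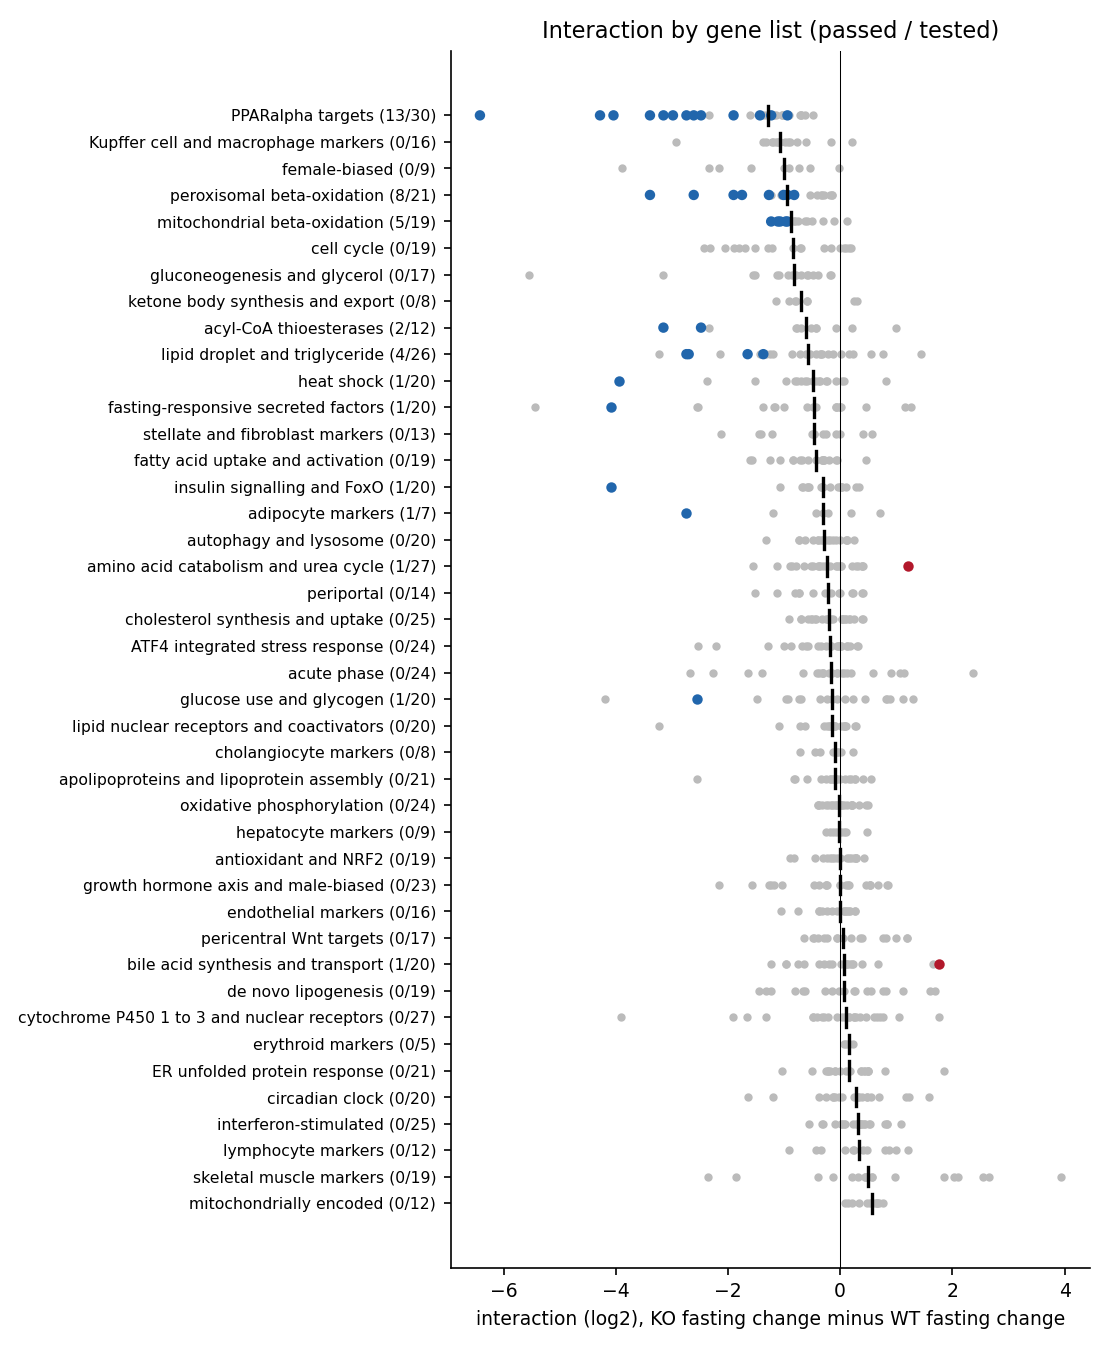
Interaction (log2, KO fasting change minus WT fasting change) of each tested member of the gene lists with at least 5 tested members, with the list median as a black bar and the number passed over the number tested beside the name. Coloured points passed (blue negative, red positive), and they gather in the PPARα, peroxisomal, mitochondrial, thioesterase and lipid droplet lists.

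The 7 lipid lists (PPARα targets, uptake, both kinds of beta-oxidation, ketone bodies, thioesterases and lipid droplets) together held 118 tested genes, of which 24 passed as negative and 0 as positive. Over all genes tested these shares were 0.492% and 0.118%. The lists were chosen with earlier results of these data known, so the counts are a description. The remaining 37 of the 44 lists brought the tested genes to 704 and added 3 negative and 2 positive genes. Among the 13734 tested genes on no list, 44 were negative and 15 positive. The 3 were Hspa1b, Igfbp1 and Pfkfb3. Igfbp1, a secreted binding protein that insulin represses, was at 139, 99.7, 48.6 and 6.47 CPM in KO 24 h, 96, 103, 55.9 and 155 CPM in KO 4 h, 859, 634, 219 and 202 CPM in WT 24 h, and 56.2, 62.3, 20 and 19.1 CPM in WT 4 h. Every WT 24 h library was above all others. The 4 h groups overlapped. The interaction was -4.08 ± 0.98 (adjusted p = 0.049), and the call was lost in 21 of the 32 fits that left out 1 library.

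Pfkfb3, which makes the activator of glycolytic phosphofructokinase, was at 5.39, 9.07, 4.54 and 9.95 CPM in KO 24 h, 35.2, 66.7, 8.14 and 26.5 CPM in KO 4 h, 7.45, 11.5, 14.3 and 5.11 CPM in WT 24 h, and 6.52, 9.06, 6.84 and 8.34 CPM in WT 4 h. KO 4 h replicates 1, 2 and 4 were above all other libraries, and the interaction was -2.55 ± 0.55 (adjusted p = 0.0197), lost without KO 4 h replicate 2 (adjusted p = 0.0751), KO 24 h replicate 3 (0.0578) or WT 4 h replicate 3 (0.0548). Hspa1b, an inducible heat shock protein, was at 1.8, 1.41, 1.26 and 1.12 CPM in KO 24 h, 13.4, 13.7, 7.41 and 25.9 CPM in KO 4 h, 3.74, 19.3, 21.5 and 14.3 CPM in WT 24 h, and 8.11, 17.9, 8.5 and 6.26 CPM in WT 4 h. KO 24 h was the low group. The interaction was -3.94 ± 0.73 (adjusted p = 0.00641). It shares nearly all its sequence with Hspa1a, which had -2.37 (adjusted p = 0.333), and the heat shock list had a median of -0.48 with no other member passing.

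Several negative genes outside the lists ranked high by p or by the gap between genotypes. Slc35f2, a solute carrier of the nucleotide sugar transporter family, was at 5.66, 6.52, 6.75 and 7.34 CPM in KO 24 h, 9.63, 6.71, 7.28 and 5.33 CPM in KO 4 h, 2.28, 2.07, 1.43 and 1.7 CPM in WT 24 h, and 0.38, 0.181, 0.5 and 0.307 CPM in WT 4 h. KO was above WT at both times without overlap. The interaction was -2.57 ± 0.38 (adjusted p = 0.00104) on 3 to 9 reads per WT 4 h library. Hsd17b11, a lipid droplet dehydrogenase, was at 355 to 461 CPM in KO 24 h, 364 to 500 CPM in KO 4 h, 304 to 485 CPM in WT 24 h and 152 to 195 CPM in WT 4 h (interaction -1.39 ± 0.23, adjusted p = 0.00328). Nceh1, a cholesteryl ester hydrolase, had -1.24 ± 0.23 (adjusted p = 0.00641), Tmtc2, an endoplasmic reticulum mannosyltransferase, had -1.34 ± 0.23 (adjusted p = 0.00461), and the acetylcholine receptor subunit gene Chrna2 had -2.03 ± 0.36 (adjusted p = 0.00512). In each of the 3, as for Hsd17b11, WT 4 h lay below every other library.

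Alas1, the first enzyme of haem synthesis, was at 523, 678, 210 and 165 CPM in KO 24 h, 334, 205, 185 and 199 CPM in KO 4 h, 469, 441, 581 and 625 CPM in WT 24 h, and 77.8, 49.3, 77.5 and 59.2 CPM in WT 4 h. Its interaction was -2.23 ± 0.50 (adjusted p = 0.0261), lost in 6 of the 32 fits that left out 1 library. Krt23, a keratin, was at 13.7, 18.5, 9.9 and 28.1 CPM in KO 24 h, 29.5, 30, 22.1 and 19.3 CPM in KO 4 h, 10.5, 3.32, 3.67 and 2.74 CPM in WT 24 h, and 1.33, 1.27, 1 and 1.1 CPM in WT 4 h, with an interaction of -2.68 ± 0.52 (adjusted p = 0.00908). The call was lost in the fit of the 16 control diet libraries alone (adjusted p = 0.0614), and the interaction was -1.87 without the libraries with muscle transcripts (adjusted p = 0.0312). Enc1, an actin-binding protein, had -1.47 ± 0.28 (adjusted p = 0.0085). Oscar, an immunoglobulin-like receptor, was at 0.529 to 1.58 CPM in KO 24 h, 0.614 to 1.34 CPM in KO 4 h, 0.296 to 0.59 CPM in WT 24 h and had 0 reads in all 4 WT 4 h libraries, so no fold is given.

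The named positive genes lay between 0.75 and 4.11 on the log2 scale. Limd2, a LIM domain protein, was at 9.67, 10.3, 16.9 and 14.2 CPM in KO 24 h, 10.4, 12.7, 11.9 and 12.2 CPM in KO 4 h, 10.9, 9.52, 9.24 and 10.9 CPM in WT 24 h, and 20.7, 19.9, 22.7 and 21.2 CPM in WT 4 h. WT 4 h was above all other libraries. The interaction was 1.17 ± 0.21 (adjusted p = 0.00478), which passed in each of the 32 fits. Cyp2c70, the enzyme that makes muricholic acids in mice, was at 70.5, 47.1, 78.6 and 66.2 CPM in KO 24 h, 298, 338, 285 and 224 CPM in KO 4 h, 26.2, 31.5, 46.3 and 37.4 CPM in WT 24 h, and 521, 451, 546 and 568 CPM in WT 4 h. None of the 4 groups overlapped, and both genotypes were lower after 24 h. The difference between times was smaller in KO, with an interaction of 1.76 ± 0.40 (adjusted p = 0.0341), lost in 11 of the 32 fits, and no other bile acid gene of 20 passed.

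Prodh, the first enzyme of proline breakdown, was at 316, 186, 194 and 221 CPM in KO 24 h, 146, 156, 150 and 123 CPM in KO 4 h, 132, 139, 140 and 185 CPM in WT 24 h, and 217, 163, 257 and 224 CPM in WT 4 h. Every KO 24 h library was above every KO 4 h library, and the interaction was 1.20 ± 0.27 (adjusted p = 0.0253), lost in 6 of the 32 fits. Dexi (0.82), Shroom1 (0.95, an actin regulator), Pcnxl4 (0.97) and Akap17b (1.33) passed at adjusted p values of 0.019, 0.0192, 0.0178 and 0.018, and lost the call in 1, 5, 2 and 2 of those fits. Fndc4 (0.75) and Hn1l (0.83) stood at 0.0496 and lost it in 26 each. Derl3, a factor of endoplasmic reticulum degradation, was at 0.567 to 5.04 CPM in KO 24 h, 1.13 to 4.12 CPM in KO 4 h, 0.337 to 0.68 CPM in WT 24 h and 1.45 to 21.7 CPM in WT 4 h. Its interaction of 4.11 ± 0.90 (adjusted p = 0.0221) was lost without the libraries with muscle transcripts (2.85, adjusted p = 0.101). Slc13a2, a citrate and succinate carrier, stayed at or under 3.44 CPM in every library (2.59 ± 0.63, adjusted p = 0.0496), and lost the call in 27 of the 32 fits.

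Markers of other cell types were measured beside these genes. None of the 16 Kupffer cell and macrophage markers tested passed, but 15 were below 0, 10 had an unadjusted p under 0.05, and the median interaction was -1.08. Their summed level was 254 to 481 CPM in KO 24 h, 483 to 605 CPM in KO 4 h, 405 to 1430 CPM in WT 24 h and 549 to 665 CPM in WT 4 h, and no marker was at or under 3 reads in all libraries. Clec4f, a lectin of Kupffer cells, was at 37.4, 49.5, 67.7 and 55.6 CPM in KO 24 h, 98.4, 94.4, 111 and 87.5 CPM in KO 4 h, 198, 82.6, 81.9 and 127 CPM in WT 24 h, and 113, 101, 114 and 100 CPM in WT 4 h (interaction -1.09 ± 0.30, adjusted p = 0.102). The list's median was -0.50 without WT 24 h replicate 1 and -0.12 without the libraries with muscle transcripts, and DESeq2 called 3 members. In whole liver, fewer cells of a type and less RNA per cell cannot be told apart. The part of these markers in the negative genes was not tested.

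Skeletal muscle markers had 0 of 19 passing, a median of 0.50, and summed levels of 26.1 to 1060 CPM in KO 24 h, 21.9 to 30.2 CPM in KO 4 h, 28.7 to 589 CPM in WT 24 h and 27.6 to 65 CPM in WT 4 h. Without the 4 libraries that carry them, the interactions of Cyp4a14, Ehhadh, Acaa1b and Decr1 were -7.20, -4.20, -3.13 and -1.36, each further from 0 than with them. Other named genes moved toward 0, among them Krt23 (from -2.68 to -1.87), Slc35f2 (from -2.57 to -2.35) and Eci2 (from -0.97 to -0.92). In that fit KO 24 h was replicates 3 and 4 alone, at 7.52 and 7.72 mean log2 CPM over the PPARα targets. Replicates 1 and 2, left out, stood at 8.18 and 8.52. How far the shifts came with this choice of animals was not tested. Hepatocyte markers had a median of -0.02 and endothelial markers of 0.00, with none passing. Mitochondrially encoded transcripts, 6.46 to 15.5% of counts in KO 24 h, 5.22 to 5.63% in KO 4 h, 5.19 to 12.6% in WT 24 h and 5.71 to 6.59% in WT 4 h, had a median of 0.56 and none passed. Their part in the results was not tested.

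On the ketogenic diet the same genes had no common direction. There the 71 genes had a median of 0.01, and 33 were below 0, against 7653 of all 14438 genes. Of the 71, 1 passed as negative, against 0.104% of all genes tested that passed as negative on KD and 0.152% as positive. The Pearson correlation of the interactions on the 2 diets was 0.38 across the 71 and -0.02 across the 17. Over all genes it was 0.08. The difference between the diets passed for 18 genes of all (0.125%), among them 9 of the 71 and 2 of the 17, and 61 of the 71 and 16 of the 17 had an unadjusted p under 0.05 for it, against 1208 of all 14438 genes. The genes were picked for their interaction on CD, which is one side of that difference, so these counts are a description. Without KO 24 h replicate 4 of both diets the 18 genes became 8. The 2 interactions share no library. The PPARα targets had a median interaction of -1.29 on CD, against -0.37 on KD. Single genes had values further below 0 on KD, -2.32 for Cyp4a31, -1.67 for Cyp4a10, -1.44 for Crat and -1.23 for Ehhadh. None of these 4 passed on KD (adjusted p = 0.153, 0.335, 0.106 and 0.266).

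Cyp4a14 was at a mean of 7140 CPM in KO 24 h, 3030 CPM in KO 4 h, 3090 CPM in WT 24 h and 365 CPM in WT 4 h on KD, an interaction of -1.84 ± 0.60, which differed from that on CD by -4.58 ± 0.85 (adjusted p = 0.0241). That call was lost in 6 of the 32 fits that left out 1 library. Tmtc2 averaged 19.8, 17.1, 12.0 and 16.9 CPM in the KO 24 h, KO 4 h, WT 24 h and WT 4 h groups on KD, with an interaction of 0.70 ± 0.23, and differed between diets by -2.04 ± 0.33 (adjusted p = 0.0064). Krt23 averaged 21.5, 37.7, 1.02 and 6.88 CPM in the same order of groups, with an interaction of 1.93 ± 0.53 and a difference of -4.60 ± 0.74 (adjusted p = 0.0064). Slc35f2 differed by -2.90 ± 0.52 (adjusted p = 0.0184), and these last 3 passed in each of the 32 fits. The remaining named genes that passed, Alas1 (-3.34), Cebpd (-3.15, a C/EBP factor chosen after its values were seen), Fitm2 (-1.81), Nceh1 (-1.64), Abhd6 (-1.54) and Hn1l (1.47), lost the call in 11 to 20 of them.

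**Figure D5:**
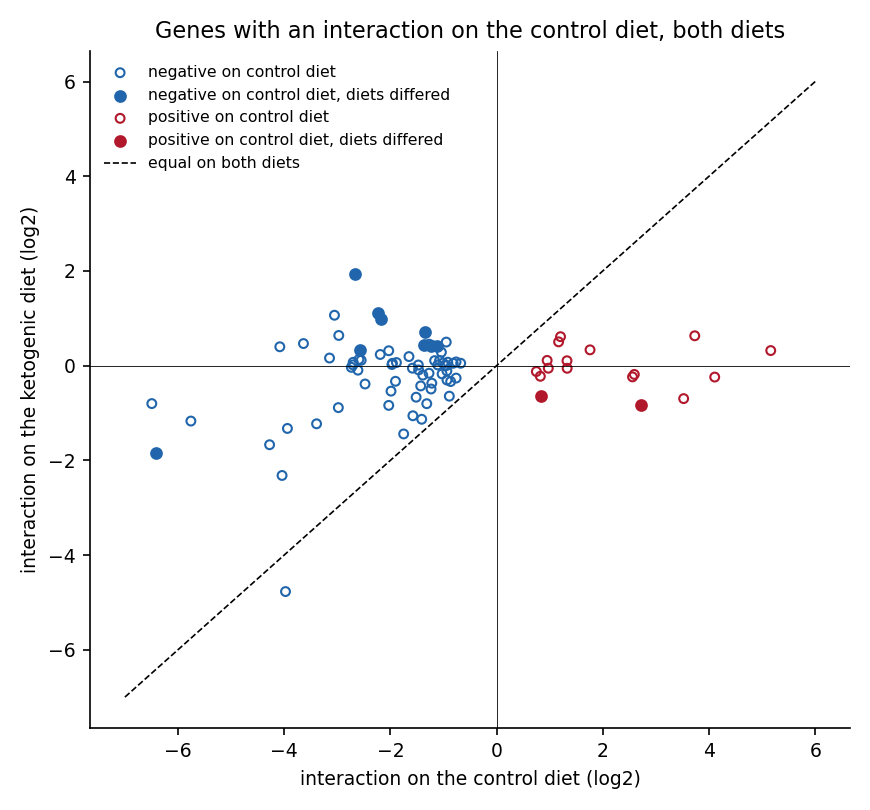
Interaction on the ketogenic diet (vertical axis, log2) against that on the control diet (horizontal axis, log2) for the 88 genes that passed on the control diet. Filled points are the 9 negative and 2 positive genes whose interaction differed between the diets, and the 71 negative genes have a median of 0.01 on the vertical axis.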

How the data were processed

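Liver polyA RNA from male mice was sequenced in 32 libraries, 4 in each of 8 groups, and the 16 control diet libraries are the subject. The authors deposited a table of read counts per gene for 35275 genes, with FPKM values and a gene length beside them. Per the submitters' processing notes, reads were aligned with TopHat2 2.0.12 and Bowtie2 2.2.3 to GRCm38 (mm10) and counted with HTSeq 0.6.1. Strandedness of the counting is not given in the sources used here, nor is the gene annotation's release, so overlapping and antisense genes cannot be separated, and near copies (the Cyp4a, Acot1 and Acot2, Acaa1a and Acaa1b, Hspa1a and Hspa1b genes) are uncertain. The deposited FPKM equalled count over length and total within 0.1% for 100.0% of values and were not tested. A total of 27 symbols turned into dates were restored.

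Counts were tested with edgeR 4.0.16 in R 4.3.3: TMM scaling, filterByExpr, 1 mean per group over all 32 libraries, and the quasi-likelihood test of the interaction, with Benjamini-Hochberg adjustment over 14438 genes and a threshold of 0.05. "Passed" means past that threshold. The standard error is the log2 estimate over the square root of F. CPM are counts scaled by the TMM library sizes. Total counts were 13406678 to 24700310 per library. The script was tested on simulated data.

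Genes were named by rule: Slc27a2; up to 15 genes per direction with the lowest p among those that passed, had a mean of at least 5 CPM in 1 control diet group and an official name; up to 4 members of each list that passed, or the 2 with the lowest p where none did; and up to 10 per direction whose KO and WT fasting changes did not overlap over all pairs of libraries. Genes named outside the rule were chosen after their values were seen; besides those marked in the text they are Cpt1a, Fgf21, Ppara, Acaa1a, Hadha, Pdk4 and Hspa1a. Values of some genes that the rule names are not reported here. Members and lists were chosen with earlier results of these data known. Alternatives were DESeq2 1.42.0, limma 3.58.1 (voom with quality weights), RLE scaling, no filter, the 16 libraries alone, and leaving libraries out.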

Additional observations from a re-analysis of the deposited data

Results flagged for a closer look

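Among 69 of the named genes and the library measures, 299 sets of 4 libraries were searched for a library far from the other 3, and 18 were found. Chance gives about 1 in 20, so the number found was near that share. The sets are not independent, since all come from the same 16 libraries. WT 24 h replicate 1 was low for Slc27a2 (1060 CPM), Cyp4a10 (1660 CPM), Acaa1b (685 CPM), Retsat (494 CPM) and the mean over male-biased genes (log2 CPM 5.95), and high for Vcam1 (93.6 CPM) and the summed muscle markers (589 CPM). KO 4 h replicate 4 was low for Slc27a2 (121 CPM), Nceh1 (35.7 CPM), Slc25a20 (119 CPM) and Slc22a5 (22.7 CPM). KO 24 h replicate 1 was low for Pcnxl4 (7.72 CPM) and Oscar (0.529 CPM), and KO 24 h replicate 3 for Ppara (101 CPM). WT 24 h replicate 2 was high for Nceh1 (87.0 CPM) and replicate 4 for Prodh (185 CPM), and in WT 4 h replicate 3 was high for Akap17b (6.17 CPM) and replicate 4 for Agpat9 (1.66 CPM).

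The interaction differed between the diets, by a test of CD minus KD, for 10 named genes. The differences were -4.58 for Cyp4a14, -2.04 for Tmtc2, -1.64 for Nceh1, -2.90 for Slc35f2, -1.81 for Fitm2, 1.47 for Hn1l, -3.34 for Alas1, -4.60 for Krt23, -3.15 for Cebpd and -1.54 for Abhd6 on the log2 scale. Tmtc2, Slc35f2 and Krt23 passed in each of the 32 fits that left out 1 library, and the others lost the call in 6 to 20 of them. Which of them held without KO 24 h replicate 4 of both diets was not examined gene by gene.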

How the results depend on the processing

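None of the 69 named genes examined changed sign under any alternative. Acaa1a, Acot3, Hadha, Hspa1a and Pdk4 were not among those examined. The 88 genes, 17 positive and 71 negative, became 216, 58 and 158 with DESeq2, 197, 25 and 172 with voom, 29, 5 and 24 with the 16 control diet libraries alone, and 810, 225 and 585 without the 4 libraries with muscle transcripts. They were 87 with RLE scaling, 84 with no filter, 68 with KO 24 h replicate 4 of each diet left out, and 85 without WT 24 h replicate 1 and KO 24 h replicate 4, where 8 were positive. The share of negative genes was 72.2% without the muscle libraries and 73.1% with DESeq2. Leaving out 1 library gave 44 to 124 genes, 6 to 29 positive and 35 to 98 negative. The 18 genes that differed between diets became 76 with DESeq2, 60 with voom, 31 with no filter, 8 without KO 24 h replicate 4 of each diet, and 4 to 42 when 1 library was left out. The cause of these shifts was not tested. No paired analysis was possible because the replicate numbers follow the order of deposit and the labels tie no animals together. Genes with few reads in WT 4 h, such as Mogat1 and Slc35f2, are limited by depth.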

Other observations

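Several transcription factors and metabolic genes outside the lists also passed, and they were chosen here after their values were seen. Cebpd, a C/EBP family factor, was at 9.2, 13.7, 9.2 and 8.15 CPM in KO 24 h, 13, 13, 6.47 and 9.06 CPM in KO 4 h, 34.5, 28.8, 18.5 and 12.8 CPM in WT 24 h, and 5.95, 5.43, 5.17 and 5.09 CPM in WT 4 h, with an interaction of -2.18 ± 0.44 (edgeR quasi-likelihood test, adjusted p = 0.0134). It passed in each of the 32 fits that left out 1 library, but not without both WT 24 h replicate 1 and KO 24 h replicate 4 (-1.85, adjusted p = 0.0631). Its relative Cebpb had -1.48 ± 0.34 (adjusted p = 0.0373) and the AP-1 factor Fosl2 had -1.22 ± 0.28 (adjusted p = 0.0326), and both lost the call in 9 of those fits. The carnitine transporter Slc22a5 was at 68, 80, 49.1 and 54.8 CPM in KO 24 h, 42.7, 43.1, 39.6 and 22.7 CPM in KO 4 h, 65.9, 79.3, 87.3 and 76.5 CPM in WT 24 h, and 17, 21.9, 19.6 and 22.2 CPM in WT 4 h. Its interaction was -1.17 ± 0.26 (adjusted p = 0.0242), and the call was lost in 6 of the 32 fits.

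Retsat, which saturates retinol, had -1.99 (adjusted p = 0.0471) and lost the call in 22 of the 32 fits. Vcam1, an adhesion molecule, was at 5.5, 8.13, 8.38 and 4.85 CPM in KO 24 h, 9.82, 10.9, 6.96 and 11 CPM in KO 4 h, 93.6, 12.8, 10.3 and 9.25 CPM in WT 24 h, and 6.9, 7.43, 6.34 and 7.55 CPM in WT 4 h. Its interaction was -2.70 (adjusted p = 0.0491), and -1.15 without WT 24 h replicate 1 (adjusted p = 0.0776). The Vcam1 call was lost in 26 of the 32 fits that left out 1 library. Apoa4, an apolipoprotein of triglyceride-rich particles, was at 209, 284, 353 and 119 CPM in KO 24 h, 265, 112, 266 and 106 CPM in KO 4 h, 2230, 2190, 1150 and 1010 CPM in WT 24 h, and 308, 293, 151 and 117 CPM in WT 4 h. WT 24 h stood above all other libraries, and the interaction of -2.55 ± 0.63 did not pass (adjusted p = 0.0565).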
